A study of Mus musculus with 20 samples.

Results

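Glycolysis, glucose uptake and the pentose phosphate pathway were followed through 33 listed genes in 3 populations of marrow cells from C57BL/6-background female mice. A gene entered when a probe set of the array carried its symbol and no other. This held for 28 of the 33, among 22180 genes with such a probe set, and all 28 were bright enough to be tested. Gpi1, Eno1, G6pdx, Aldoa and Tkt were not analysed here; for Aldoa and Tkt the probe sets found carry a second gene's symbol as well. The arrays were 20 in number and fell into 6 groups.

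Common myeloid progenitors (CMPs) and granulocyte-macrophage progenitors (GMPs) were profiled straight from the sort, with 3 wild-type (WT) and 3 CreER-Raptor arrays each. Lineage-negative (Lin-) marrow cells, the fraction that lacks markers of mature blood cells, were kept with M-CSF, the macrophage growth factor, at 10 ng/ml for 12 h and had 4 arrays per genotype. The mice called CreER-Raptor carry CreER and Rptor alleles flanked by loxP sites (CreER-Rptor-flox/flox). Rptor encodes Raptor, the scaffold of the growth-regulating kinase complex mTORC1. The labels give neither the promoter that drives CreER, nor whether and when Cre was induced, nor whether WT mice carried Cre, nor the age of the mice or whether marrow was pooled. Nor do they say that replicates are separate animals, and the p-values then cover only the spread among these samples, possibly technical. The study compares the genotypes within each population.

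Cells take up glucose through SLC2A transporters, and hexokinases trap it as glucose 6-phosphate. Glycolysis then splits the sugar into pyruvate, which becomes lactate through lactate dehydrogenase or enters mitochondria, while the pentose phosphate pathway turns glucose 6-phosphate into NADPH and ribose. mTORC1 is known to raise glycolytic genes through the transcription factor HIF-1 and pentose phosphate genes through SREBP. Several steps are carried out by isozymes from separate genes whose use differs between blood lineages.

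The genotype changes were largest for 5 members, and their promoters are shown because the results turn on these genes and because mTORC1 is known to act on glycolytic genes through factors that bind promoters. Each sequence is the 250 bases before a start given in a RefSeq promoter table (GRCm38.p6), 5′ to 3′, and for Pfkm, which has 4 entries, the one nearest the gene's outermost start was taken. In Hk3 90 of the bases, and in Slc2a6 2, lie within the span of the gene in RefSeq, downstream of its outermost start. Hk3 lies at chr13:55021386-55021635 (minus strand), Pfkm at chr15:98092339-98092588 (plus strand) and Slc16a1 at chr3:104638414-104638663 (plus strand). Ldhb lies at chr6:142507958-142508207 (minus strand) and Slc2a6 at chr2:27027999-27028248 (minus strand). Capitals mark matches to ACGTG, the core of the hypoxia response element, and to CACGTG, the E-box, which contains that core on both strands.
Hk3: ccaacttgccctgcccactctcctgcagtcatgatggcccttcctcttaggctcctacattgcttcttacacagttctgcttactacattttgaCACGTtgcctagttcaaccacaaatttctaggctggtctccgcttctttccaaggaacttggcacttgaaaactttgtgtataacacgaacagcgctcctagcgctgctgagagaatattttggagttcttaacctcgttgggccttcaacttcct
Pfkm: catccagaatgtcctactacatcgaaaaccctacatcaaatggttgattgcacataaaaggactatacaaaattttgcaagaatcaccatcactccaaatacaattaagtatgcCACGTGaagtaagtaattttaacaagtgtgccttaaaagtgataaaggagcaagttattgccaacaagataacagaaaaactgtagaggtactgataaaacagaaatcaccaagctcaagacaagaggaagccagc
Slc16a1: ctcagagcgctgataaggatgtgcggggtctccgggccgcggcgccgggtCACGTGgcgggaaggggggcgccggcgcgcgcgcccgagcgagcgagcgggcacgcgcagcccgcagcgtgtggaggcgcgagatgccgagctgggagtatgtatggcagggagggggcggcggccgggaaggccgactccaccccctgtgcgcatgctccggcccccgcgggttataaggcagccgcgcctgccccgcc
Ldhb: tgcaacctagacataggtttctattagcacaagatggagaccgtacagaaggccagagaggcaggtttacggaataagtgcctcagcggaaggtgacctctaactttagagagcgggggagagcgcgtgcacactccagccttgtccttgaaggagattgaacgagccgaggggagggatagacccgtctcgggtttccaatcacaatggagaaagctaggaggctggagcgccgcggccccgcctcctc
Slc2a6: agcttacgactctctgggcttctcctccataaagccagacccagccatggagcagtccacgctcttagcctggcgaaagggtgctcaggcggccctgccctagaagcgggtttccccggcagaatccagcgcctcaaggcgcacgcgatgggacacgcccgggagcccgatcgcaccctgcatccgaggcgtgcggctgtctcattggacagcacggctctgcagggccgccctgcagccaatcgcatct
The core ACGTG, searched on both strands, was found in Hk3, Pfkm and Slc16a1 and not in the windows of Ldhb and Slc2a6. In Pfkm and Slc16a1 the match is an E-box. Over all members with an entry, 11 of 27 held the core and 4 an E-box, against 16.6% and 6.02% of the 32851 promoters of the table. Of the 14 members that passed the genotype test in some population all had an entry, and 7 held the core. TCACNCCAC, the sterol regulatory element, was found in 1 of the 27, Aldoc, and in 1.05% of all promoters. A match is a description of these letters only.

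The median log2 value of an array was 4.76 to 4.91, and arrays of 1 group correlated at 0.978 or higher. The SD of an array's deviations from its group's means was 0.109 to 0.168 for CMP and GMP arrays and 0.171 to 0.236 for Lin- + MCSF arrays. Rptor itself did not pass the test in any population, with CreER-Raptor minus WT differences of -0.29 (adjusted p = 0.163), -0.17 (0.465) and -0.18 (0.305) in CMPs, GMPs and Lin- + MCSF cells by limma. Its CMP arrays did not overlap, at 8.51 to 8.72 in WT and 8.20 to 8.45 in CreER-Raptor cells. They overlapped in GMPs (9.17 to 9.44 against 8.85 to 9.25) and Lin- + MCSF cells (6.95 to 7.34 against 6.83 to 7.06). Whether the probes of Rptor lie in the floxed part was not tested. Kit, the stem cell factor receptor found on both progenitors, read at least 10.67 on every CMP and GMP array. It was higher in CreER-Raptor cells without overlap in every population. Kit read 10.67 to 10.81 in WT and 11.09 to 11.19 in CreER-Raptor CMPs, and 10.67 to 10.89 against 10.95 to 11.16 in GMPs. In Lin- + MCSF cells it read 8.73 to 9.18 against 9.89 to 9.97. Fcgr3, part of the antigen that separates GMPs from CMPs, read 9.28 to 9.79 in WT CMPs and 10.46 to 10.71 in WT GMPs. It was lower in CreER-Raptor CMPs, at 8.63 to 9.07 (-0.64, limma adjusted p = 0.00318). Cd34, which is also used to gate these cells, read 10.55 to 10.76 in WT CMPs and 10.20 to 10.29 in WT GMPs, but 9.09 to 9.89 and 8.73 to 8.97 in the CreER-Raptor cells. The falls of Cd34 passed (-1.08, adjusted p = 2.59e-05, and -1.37, adjusted p = 1.27e-06, by limma). The part of Kit, Cd34 and Fcgr3 in the results below was not tested. In these bulk samples fewer cells of a type and less RNA per cell cannot be told apart.

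Members moved in both directions with the genotype. In CMPs, 3 members rose and 6 fell, of 28 tested; among all genes tested, 11.4% passed, 6.01% rising and 5.44% falling. In GMPs, 3 rose and 5 fell, where 11.9% of all genes passed, 4.37% rising and 7.53% falling; with repeated quantile normalization 4 rose and 3 fell. Cultured Lin- cells had 4 rising and 4 falling, where 12.5% of all genes passed, 6.82% rising and 5.73% falling. Passing means an adjusted p under 0.05 in a limma fit over 16638 genes. The median change of the members was -0.17, -0.02 and -0.11 log2 units in the 3 populations, against -0.01, 0.02 and 0.01 over all genes tested. WT and CreER-Raptor arrays were fully separate for 19 members in CMPs, 16 in GMPs and 4 in Lin- + MCSF cells, where 30.8%, 32.4% and 13.9% of all genes did not overlap.

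In all, 14 members passed in at least 1 population and 3 in all of them: Slc2a6 and Ldhb, which were lower, and Slc16a1, which was higher. The shares of all genes that did so were not computed, so these counts cannot be set against a background. The count in GMPs was 5 without CreER-Raptor replicate 1 or without WT replicate 2. That in Lin- + MCSF cells was 5 without WT replicate 2, WT replicate 3 or CreER-Raptor replicate 4, and 2 when those arrays were fitted alone. With array weights, 14, 15 and 5 members passed in the 3 populations. CreER-Raptor GMP replicate 1 had a weight of 4.7 there, against 0.82 and 0.52 for replicates 2 and 3. Calls in GMPs with array weights thus lean on that array.

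**Figure D1:**
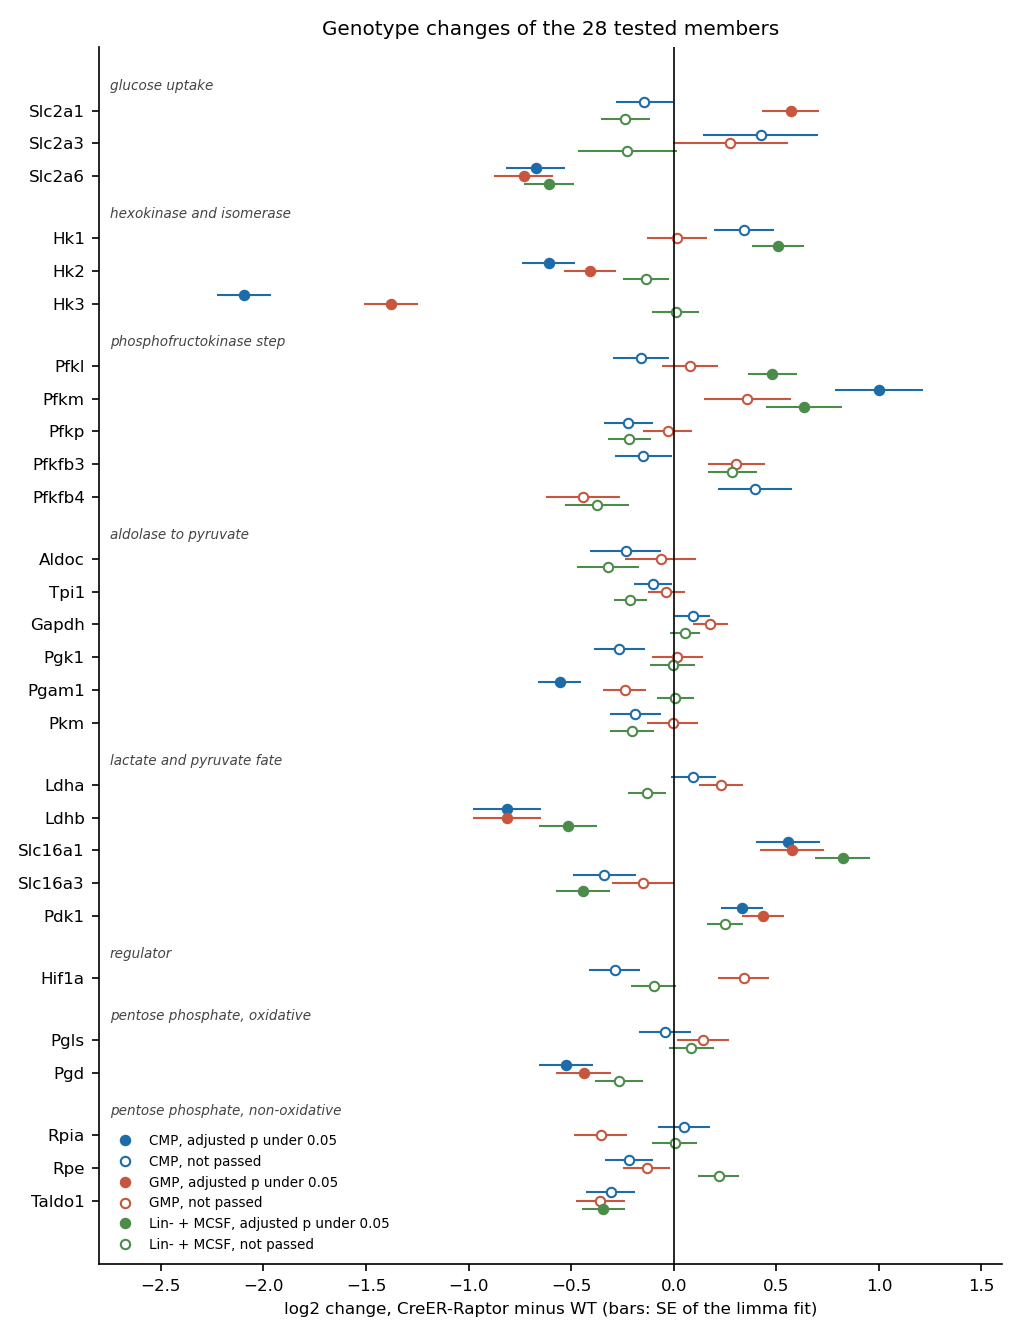
Log2 change (CreER-Raptor minus WT, x axis) of the 28 tested members by step of the pathway, in CMPs (blue), GMPs (red) and Lin- + MCSF cells (green). Points are limma estimates, bars their SE, and filled points passed at an adjusted p under 0.05; Slc2a6 and Ldhb lie left of 0 and Slc16a1 right of 0 in all populations, and Hk3 has the largest changes, -2.10 in CMPs and -1.38 in GMPs.

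Among the glucose transporters, Slc2a6, a hexose transporter found on lysosomes, was lower in CreER-Raptor cells of every population. Its log2 values in CMPs were 6.86, 6.70 and 6.67 in WT and 6.13, 5.86 and 6.23 in CreER-Raptor cells. In GMPs they were 6.88, 6.93 and 6.72 against 5.95, 6.21 and 6.18, and in Lin- + MCSF cells 7.68, 7.71, 8.20 and 7.80 against 7.11, 7.52, 7.09 and 7.25. All CreER-Raptor arrays lay below all WT arrays of their population. The changes were -0.67 ± 0.14 (SE; adjusted p = 0.00247), -0.73 ± 0.14 (0.00132) and -0.61 ± 0.12 (0.00223) by limma, or 0.627, 0.603 and 0.657 of the WT level. They passed under every alternative tried, left-out arrays included.

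Slc2a1 (GLUT1), the widely expressed basal glucose transporter, rose in GMPs. It read 8.51, 8.38 and 8.39 in WT GMPs and 9.10, 8.91 and 8.98 in CreER-Raptor GMPs, without overlap (0.57 ± 0.14, limma adjusted p = 0.00868). In CMPs it read 8.35, 8.19 and 8.41 against 8.22, 7.80 and 8.51, which overlap, with a difference of -0.14 ± 0.14 (0.666). The Lin- + MCSF arrays read 8.51, 8.44, 8.52 and 8.25 against 8.11, 8.31, 8.32 and 8.04, with a difference of -0.24 ± 0.12 (0.221). The genotype change in Lin- + MCSF cells was lower than that in GMPs by 0.81 log2 units (interaction -0.81 ± 0.18, limma adjusted p = 0.0116). Another probe set of Slc2a1, with a mean of 4.14, differed by 0.09 in GMPs, and with the mean of both the GMP rise (0.33, adjusted p = 0.0792) and the interaction (-0.40, 0.172) did not pass. Slc2a3 (GLUT3), a transporter with high affinity for glucose, passed in no comparison of the main fit. Its genotype differences were 0.42, 0.28 and -0.23. In CMPs its arrays did not overlap, at 7.22 to 7.38 in WT and 7.54 to 7.91 in CreER-Raptor cells. That rise passed with CMP arrays fitted alone (0.42, limma adjusted p = 0.0378). The WT Lin- + MCSF arrays, which share the spread in the main fit, read 6.27 to 8.11.

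Of the 3 hexokinases tested, Hk3, the isozyme of myeloid cells, had the largest change of any member, a fall of 2.10 log2 units in CMPs (-2.10 ± 0.13, limma adjusted p = 1.2e-09), to 0.234 of the WT level. It read 8.93, 8.60 and 8.97 in WT and 6.72, 6.91 and 6.59 in CreER-Raptor CMPs. In GMPs it read 9.13, 9.32 and 9.22 against 8.06, 7.96 and 7.51 (-1.38 ± 0.13, 2.51e-07), to 0.384 of the WT level. In Lin- + MCSF cells the genotypes overlapped, at 8.18, 8.31, 8.24 and 8.18 against 8.33, 8.31, 8.11 and 8.20, a difference of 0.01 ± 0.12 (0.973).

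Both freshly sorted populations thus had lower Hk3 on every CreER-Raptor array, and the cultured cells did not. The interaction tests bear on this difference directly. The change in Lin- + MCSF cells was higher than that in CMPs by 2.10 ± 0.18 (limma adjusted p = 1.04e-07) and than that in GMPs by 1.39 ± 0.18 (3.62e-05), under every alternative tried. The change in GMPs was smaller in size than that in CMPs (0.72 ± 0.19, 0.0445), with adjusted p from 0.000159 to 0.137 over the alternatives. That call was lost without any 1 of 9 arrays (all but CreER-Raptor and WT CMP replicate 2 and CreER-Raptor GMP replicate 3), where the change was 0.60 to 0.76. It also failed with a block on the replicate number (0.0548), with CMP and GMP arrays fitted alone (0.0672), with arrays centred on their median (0.0903) and without the filter on dim genes (0.0537).

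Markers of myeloid cells were counted beside Hk3, to be read against the 11.4%, 11.9% and 12.5% of all genes that passed in CMPs, GMPs and Lin- + MCSF cells. Of 12 neutrophil granule markers, 0 rose and 9 fell in CMPs, 2 rose and 3 fell in GMPs, and 0 rose and 0 fell in Lin- + MCSF cells. Their mean log2 level on an array was 10.43 to 10.71 in WT CMPs and 9.20 to 9.35 in CreER-Raptor CMPs. It was 10.61 to 10.84 against 10.07 to 10.35 in GMPs and 10.93 to 11.47 against 11.23 to 11.37 in Lin- + MCSF cells. The median change of the list in GMPs was 0.01: Ltf (-3.53), Camp (-2.97) and Ngp (-1.18) fell and S100a8 (0.51) and Lcn2 (0.97) rose, granule and antimicrobial proteins named here after their values were seen. Of 11 monocyte and macrophage markers, 7, 8 and 10 fell and 0 rose in the 3 populations. Their means were 8.81 to 8.92 against 7.73 to 7.90 in CMPs, 9.38 to 9.40 against 8.03 to 8.23 in GMPs and 9.69 to 9.97 against 8.46 to 8.57 in Lin- + MCSF cells, where Hk3 did not differ. The part of these markers in the Hk3 result was not tested.

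**Figure D2:**
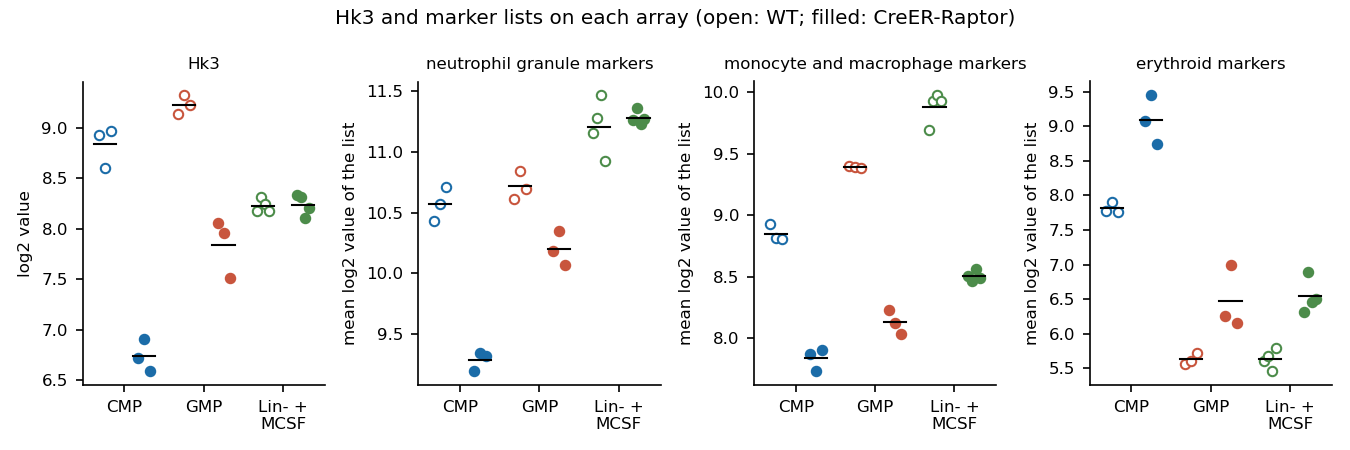
Hk3 (log2 value) and the mean log2 value of 3 marker lists on each array, by population, with WT arrays open, CreER-Raptor arrays filled and group means as lines. Hk3 and the mean of the neutrophil granule list were lower on all CreER-Raptor CMP and GMP arrays and overlapped in Lin- + MCSF cells, while the monocyte list was lower and the erythroid list higher on all CreER-Raptor arrays of each population.

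Hk2, the inducible hexokinase bound to mitochondria and a known HIF-1 target, was lower in CMPs and GMPs. It read 7.05, 6.86 and 7.09 in WT and 6.49, 6.37 and 6.30 in CreER-Raptor CMPs (-0.61 ± 0.13, limma adjusted p = 0.00223), a call kept under every alternative. In GMPs it read 7.11, 7.35 and 7.12 against 6.85, 6.71 and 6.79 (-0.41 ± 0.13, 0.0405). WT and CreER-Raptor arrays were separate in both populations. The GMP call was lost when any of the 6 GMP arrays was left out (-0.45 to -0.33, adjusted p = 0.0595 to 0.2) and with repeated quantile normalization (0.0751). Hk2 differed in Lin- + MCSF cells by -0.14 ± 0.11 (0.485), with overlapping arrays.

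Hk1, the hexokinase of most tissues and of red cells, rose in Lin- + MCSF cells. It read 7.00, 6.59, 6.72 and 7.00 in WT and 7.51, 7.49, 6.96 and 7.38 in CreER-Raptor cells (0.51 ± 0.13, limma adjusted p = 0.0107; 0.0734 with those arrays fitted alone). CreER-Raptor replicate 3 lay within the WT range and the other 3 above it. In CMPs Hk1 read 7.04, 6.92 and 7.04 against 7.42, 7.52 and 7.09 without passing (0.34 ± 0.15, 0.163), and in GMPs it differed by 0.02 ± 0.15 (0.974).

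At the phosphofructokinase step, which commits sugar to glycolysis, the muscle isozyme gene Pfkm rose in CMPs and Lin- + MCSF cells. It read 6.25, 6.05 and 6.23 in WT and 7.14, 7.63 and 6.75 in CreER-Raptor CMPs, a ratio of 2.00 to WT (1.00 ± 0.21, limma adjusted p = 0.00257) that passed under every alternative. The Lin- + MCSF arrays read 4.93, 4.57, 3.95 and 4.55 against 4.89, 5.38, 4.96 and 5.31 (0.64 ± 0.19, 0.027). There 1 CreER-Raptor array lay within the WT range. In GMPs, at 5.35, 5.62 and 5.62 against 5.71, 6.15 and 5.80, the arrays did not overlap but the difference did not pass (0.36 ± 0.21, 0.338). The Lin- + MCSF call had adjusted p from 0.00899 to 0.0996 over the alternatives and was lost without WT replicate 3 (0.45), CreER-Raptor replicate 2 (0.55) or CreER-Raptor replicate 4 (0.58), with array weights and with those arrays fitted alone.

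Pfkl, the liver isozyme, rose in Lin- + MCSF cells, from 7.38, 7.47, 7.27 and 7.08 in WT to 7.91, 8.14, 7.50 and 7.59 (0.48 ± 0.12, limma adjusted p = 0.00985; 0.0937 with those arrays fitted alone). The genotypes did not overlap there. In CMPs it differed by -0.16 ± 0.14 (0.597), and the 2 changes differed by the interaction test (0.64 ± 0.18, 0.0299). That interaction had adjusted p from 0.0103 to 0.103 over the alternatives. It was lost without WT replicate 4 or CreER-Raptor replicate 1 or 2 of the Lin- + MCSF arrays, or without any CreER-Raptor CMP array or WT CMP replicate 3 (0.52 to 0.66), after median centring and with the 2 populations fitted alone. Pfkp, the platelet isozyme, and the bifunctional enzymes Pfkfb3 and Pfkfb4, which set the level of an activator of phosphofructokinase, did not pass in any genotype comparison. Pfkfb4 differed by 0.40 in CMPs and by -0.44 and -0.37 in GMPs and Lin- + MCSF cells. Its WT and CreER-Raptor arrays were separate in CMPs and GMPs. With array weights Pfkfb4 passed in CMPs (0.49, limma adjusted p = 0.024) and GMPs (-0.37, 0.0258). It also passed with GMP arrays fitted alone (-0.44, 0.0314).

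Erythroid markers were higher beside these changes. Of 10 tested, 8 rose in CMPs, 4 in GMPs and 8 in Lin- + MCSF cells, and 0 fell. Their mean level on an array was 7.76 to 7.90 in WT and 8.74 to 9.45 in CreER-Raptor CMPs, 5.56 to 5.72 against 6.16 to 6.99 in GMPs and 5.46 to 5.79 against 6.31 to 6.90 in Lin- + MCSF cells. Of 7 megakaryocyte and platelet markers, 1 rose in CMPs, 1 rose and 1 fell in GMPs, and 5 rose in Lin- + MCSF cells. The other lists are given in the order CMPs, GMPs and Lin- + MCSF cells. All these marker counts are to be read against the 11.4%, 11.9% and 12.5% of all genes that passed there. Of 7 dendritic cell markers 4, 3 and 0 rose and 0 fell, and of 5 eosinophil markers 0 rose and 2, 3 and 2 fell. Of the stem cell markers, 8 in number, 1, 1 and 4 rose while 2, 3 and 1 fell. Of 7 mast cell and basophil markers 1, 3 and 1 rose and 1, 0 and 2 fell, and of 8 lymphoid markers 1, 0 and 2 rose and 2, 1 and 0 fell. The part of any of these markers in the changes of Pfkm, Pfkl and Hk1 was not tested.

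**Figure D3:**
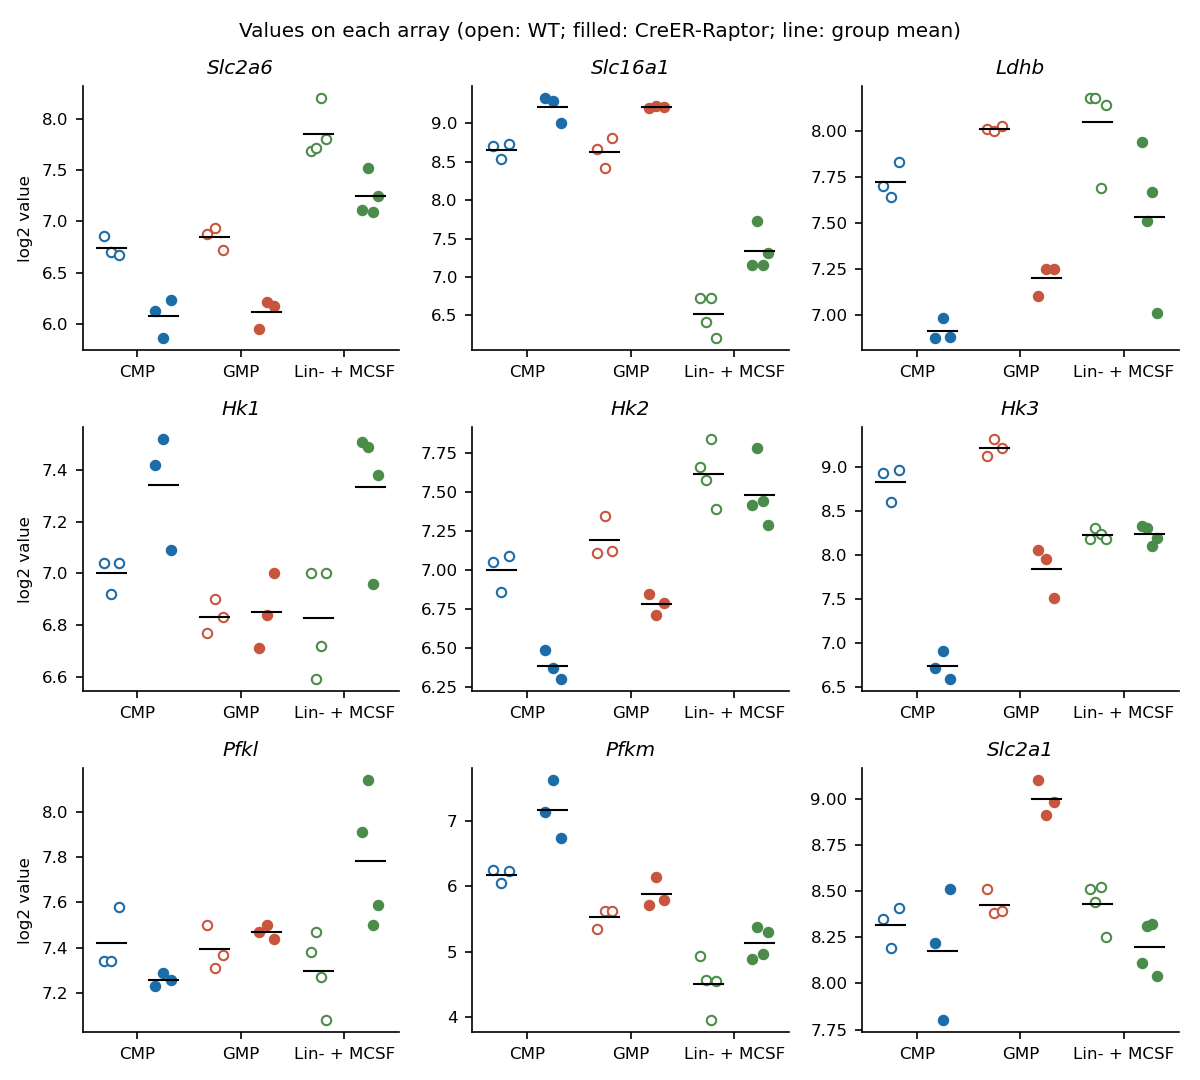
Log2 value (y axis, scaled per gene) of 9 members on each array, by population, with WT arrays open, CreER-Raptor arrays filled and group means as lines. Slc2a6 and Ldhb were lower and Slc16a1 higher in CreER-Raptor cells of each population, Hk2 and Hk3 were lower in CMPs and GMPs, and Slc2a1 was higher in GMPs.

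From aldolase to pyruvate, 1 of 6 tested members passed in a genotype comparison, and the differences of the 6 ranged from -0.56 to 0.09 in CMPs, -0.24 to 0.18 in GMPs and -0.32 to 0.05 in Lin- + MCSF cells. Pgam1, phosphoglycerate mutase, read 10.51, 10.38 and 10.60 in WT and 10.01, 9.76 and 10.05 in CreER-Raptor CMPs (-0.56 ± 0.11, limma adjusted p = 0.000867), without overlap. Its change in Lin- + MCSF cells (0.01) was higher than in CMPs by the interaction test (0.56 ± 0.14, 0.0126; 0.48 and 0.0553 without CreER-Raptor CMP replicate 2).

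The probe sets of Pgam1 disagreed. The gene lies on chromosome 19 in the RefSeq table, but the 30 probe sets nearest in number to the one used here are of genes on chromosome 3. The other probe set of Pgam1, 28 of whose 30 neighbours are of genes on chromosome 19, differed by -0.14 ± 0.27 in CMPs (adjusted p = 0.871), and the interaction was then 0.15 (0.892). The Pgam1 calls are therefore uncertain.

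Gapdh, the enzyme that yields NADH, differed by 0.09 ± 0.08 in CMPs (limma adjusted p = 0.635) and by 0.18 and 0.05 in the other populations without passing. It too is uncertain, since its probe sets lie among those of genes on other chromosomes and 8 more are shared with a second gene. Tpi1 (-0.10, -0.04 and -0.21), Pgk1 (-0.27, 0.02 and -0.01), Pkm (-0.19, -0.01 and -0.20) and Aldoc (-0.24, -0.06 and -0.32) did not pass. The splice forms of Pkm are not separated by this probe set.

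At the fate of pyruvate and lactate, Ldhb, the lactate dehydrogenase subunit of oxidative tissues, was lower in every population. It read 7.70, 7.64 and 7.83 in WT and 6.87, 6.98 and 6.88 in CreER-Raptor CMPs, and 8.01, 8.00 and 8.03 against 7.10, 7.25 and 7.25 in GMPs. The genotypes did not overlap in either, and the CreER-Raptor level was 0.569 of WT in both (-0.81 ± 0.17, limma adjusted p = 0.0017, and -0.81 ± 0.17, 0.00194), and passed under every alternative. Cultured Lin- cells read 8.18, 8.18, 7.69 and 8.14 against 7.94, 7.51, 7.67 and 7.01 (-0.52 ± 0.14, 0.0215). WT replicate 3 lay within the CreER-Raptor range there. That call had adjusted p from 0.00378 to 0.148 over the alternatives; it was lost without WT replicate 1, 2 or 4 or CreER-Raptor replicate 4 (-0.48 to -0.34) and with those arrays fitted alone.

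Ldha, the subunit that favours lactate and a known HIF-1 target, did not pass in any population. Its differences were 0.10 ± 0.11, 0.23 ± 0.11 and -0.13 ± 0.09 (limma adjusted p = 0.732, 0.205 and 0.419). The 1 probe set of Ldha had a mean of 5.895, against 7.594 for that of Ldhb, and read 5.18 to 5.35 in WT Lin- + MCSF cells. How well it reports the transcript was not tested.

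Slc16a1 (MCT1), which carries lactate and pyruvate across the cell membrane, rose in every population. In CMPs it read 8.71, 8.53 and 8.73 in WT and 9.33, 9.29 and 9.01 in CreER-Raptor cells (0.56 ± 0.16, limma adjusted p = 0.0215). In GMPs it read 8.67, 8.42 and 8.81 against 9.20, 9.22 and 9.21 (0.58 ± 0.16, 0.0174). Cultured Lin- cells read 6.73, 6.41, 6.73 and 6.20 against 7.16, 7.73, 7.16 and 7.31, a ratio of 1.77 (0.82 ± 0.14, 0.000284). All CreER-Raptor arrays lay above all WT arrays of their population. The call in Lin- + MCSF cells passed under every alternative. Adjusted p over the alternatives was 0.00184 to 0.0964 in CMPs and 0.000233 to 0.115 in GMPs. The CMP call was lost without CreER-Raptor replicate 1 or 2 or WT replicate 2 (0.50 to 0.52), and the GMP call without the arrays of the same labels (0.47 to 0.58).

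Slc16a3 (MCT4), the lactate exporter of glycolytic cells and a known HIF-1 target, was lower in Lin- + MCSF cells. It read 6.37, 6.60, 6.76 and 6.08 in WT and 5.69, 6.15, 6.03 and 6.18 in CreER-Raptor cells (-0.44 ± 0.13, limma adjusted p = 0.0309), with overlap. That call had adjusted p from 0.00564 to 0.146; it was lost without WT replicate 2 or 3 or CreER-Raptor replicate 1 or 3 (-0.45 to -0.33), with array weights and with those arrays fitted alone. In CMPs Slc16a3 read 5.86, 5.84 and 5.86 against 5.60, 5.43 and 5.51 without passing (-0.34 ± 0.15, 0.191). The transporters for lactate thus differed in direction in Lin- + MCSF cells, Slc16a1 higher and Slc16a3 lower.

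Pdk1, a kinase that turns off pyruvate dehydrogenase and a known HIF-1 target, was higher in GMPs and CMPs. It read 7.33, 7.25 and 7.32 in WT and 7.73, 7.64 and 7.84 in CreER-Raptor GMPs (0.43 ± 0.10, limma adjusted p = 0.00698). In CMPs it read 7.34, 7.32 and 7.44 against 7.62, 7.61 and 7.87 (0.33 ± 0.10, 0.0397), and in Lin- + MCSF cells the difference was 0.25 ± 0.09 without passing (0.0728). The genotypes did not overlap in CMPs and GMPs. The CMP call was lost when any of the 6 CMP arrays was left out (0.25 to 0.38, adjusted p = 0.0535 to 0.192) and with the replicate number as a block (0.0505). The other probe set of Pdk1 differed by 0.29 in CMPs and 0.00 in GMPs, and with the mean of both neither call passed (0.141 and 0.324). Hif1a itself, the regulated subunit of HIF-1, did not pass in any genotype comparison (-0.29, 0.34 and -0.10; adjusted p = 0.171, 0.0871 and 0.63). Its WT and CreER-Raptor arrays were separate in CMPs and GMPs. In GMPs Hif1a passed upward with repeated quantile normalization (0.40, adjusted p = 0.0372), with array weights (0.28, 0.0116) and without CreER-Raptor replicate 2 (0.44, 0.0494), and in CMPs downward with array weights (-0.33, 0.0211).

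In the oxidative branch of the pentose phosphate pathway, Pgd, the second NADPH-forming enzyme, was lower in CMPs and GMPs. It read 10.24, 10.13 and 10.49 in WT and 9.79, 9.71 and 9.78 in CreER-Raptor CMPs (-0.53 ± 0.13, limma adjusted p = 0.0109). In GMPs it read 10.90, 10.92 and 10.80 against 10.29, 10.48 and 10.52 (-0.44 ± 0.13, 0.0346). The genotypes did not overlap in either, while in Lin- + MCSF cells the difference did not pass (-0.27 ± 0.12, 0.144). The CMP call was lost without CreER-Raptor replicate 2 (0.051) or WT replicate 3 (0.084), with a range of 0.000584 to 0.084 over the alternatives. The GMP call was lost without any 1 of the GMP arrays other than CreER-Raptor replicate 3 (-0.48 to -0.37; range of adjusted p 6.53e-05 to 0.154) and with repeated quantile normalization (0.0568). Pgls, the lactonase of this branch, differed by -0.04, 0.14 and 0.09 without passing.

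In the non-oxidative branch, Taldo1, transaldolase, was lower in Lin- + MCSF cells, at 9.72, 9.82, 10.12 and 9.57 in WT and 9.44, 9.65, 9.36 and 9.42 in CreER-Raptor cells (-0.34 ± 0.10, limma adjusted p = 0.0323). The arrays overlapped there. In CMPs, at 10.16, 10.05 and 10.22 against 9.74, 9.90 and 9.87, and in GMPs, at 10.20, 10.19 and 10.30 against 9.88, 9.79 and 9.95, they did not overlap, but the differences (-0.31 and -0.36) did not pass (0.113 and 0.0551). The GMP difference passed under 5 of the 10 alternative settings (0.00141 to 0.0489) and the CMP difference with array weights (0.00779). The Lin- + MCSF call had adjusted p from 0.011 to 0.165. It was lost without WT replicate 2 or 3 or CreER-Raptor replicate 1, 3 or 4 (-0.34 to -0.24), with arrays centred on their median, with array weights and with those arrays fitted alone. Rpia and Rpe, which interconvert pentose phosphates, did not pass in any genotype comparison. The differences were 0.05, -0.36 and 0.00 for Rpia and -0.22, -0.13 and 0.22 for Rpe. In GMPs Rpia passed downward with array weights (-0.43, limma adjusted p = 0.00067) and without CreER-Raptor replicate 3 (-0.48, 0.018).

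Other genes of these pathways were counted by list, to be read against the 11.4%, 11.9% and 12.5% of all genes that passed in CMPs, GMPs and Lin- + MCSF cells. Of 26 other glycolysis and uptake genes tested, 3 rose and 1 fell in CMPs, 0 rose and 1 fell in GMPs, and 4 rose and 1 fell in Lin- + MCSF cells, with medians of -0.03, 0.11 and 0.03. Pklr, the pyruvate kinase of liver and red cells, rose by 1.57 ± 0.21 in CMPs (limma adjusted p = 1.8e-05) and did not pass in GMPs or Lin- + MCSF cells. Its change in Lin- + MCSF cells was lower than that in CMPs (interaction -1.45 ± 0.28, limma adjusted p = 0.00166). Erythroid markers were higher in every population, and their part in the Pklr rise was not tested. Slc16a7, another monocarboxylate transporter, fell in CMPs (-0.65) and GMPs (-0.79), and Slc2a8, an intracellular glucose transporter, rose in CMPs (0.76). Galm, which interconverts forms of sugars, rose in CMPs (0.53) and in Lin- + MCSF cells (0.51). The latter also had a rise of the enolase gene Eno2 (0.51) and Pfkfb2 (0.32) and a fall of Gpd2, the mitochondrial glycerol phosphate dehydrogenase (-0.33).

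Of 11 genes of pyruvate entry into mitochondria, 1 rose in each population and 0 fell: pyruvate carboxylase (Pcx, 0.91) in CMPs, Dlat (0.34), a subunit of pyruvate dehydrogenase, in GMPs and Pdk2 (0.47) in Lin- + MCSF cells. Of 7 other pentose phosphate and NADPH genes, 1 rose and 1 fell in CMPs, 1 rose and 2 fell in GMPs and 0 passed in Lin- + MCSF cells. Idh1, which makes NADPH from isocitrate, fell by 1.40 ± 0.15 in CMPs (limma adjusted p = 1.38e-06) and by 1.07 in GMPs. Shpk, which forms sedoheptulose 7-phosphate, rose in both (0.67 and 0.44). Nnt, a mitochondrial source of NADPH, fell in GMPs (-0.37). Of 13 glycogen genes, 0 rose and 4 fell in CMPs, 2 rose and 3 fell in GMPs, and 1 rose and 1 fell in Lin- + MCSF cells. The phosphorylase kinase subunits Phka2 (-0.73 and -0.61) and Phkb (-0.54 and -0.35) fell in CMPs and GMPs. Gyg, which primes glycogen, rose in GMPs (0.62) and Lin- + MCSF cells (0.56), and Pygl, glycogen phosphorylase, rose in GMPs (0.66).

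Regulators and non-glycolytic targets of HIF-1 had 4 of 21 tested genes higher and 1 lower in CMPs, 4 and 1 in GMPs and 5 and 3 in Lin- + MCSF cells, with medians of 0.10, 0.13 and 0.23. Txnip, which limits glucose uptake, rose by 1.03 ± 0.13 in CMPs (limma adjusted p = 6.06e-06) and by 1.02 ± 0.13 in GMPs (6.27e-06). Its relative Arrdc4 rose by 1.37 and 1.04; both genes are best known as targets of the glucose-sensing factor MondoA. Vegfa, the vascular growth factor and a HIF-1 target, rose in GMPs (1.02) and Lin- + MCSF cells (0.67). Hif3a rose (1.66) and Egln3, an oxygen-dependent hydroxylase that marks HIF for breakdown, fell (-0.68) in CMPs. In Lin- + MCSF cells Egln3 rose (0.42), and the interaction of its changes there and in CMPs was 1.10 ± 0.20 (limma adjusted p = 0.000821). Higd1a, a mitochondrial target of HIF-1, fell in GMPs (-0.56) and Lin- + MCSF cells (-0.62). In Lin- + MCSF cells Vhl, which targets HIF for breakdown, fell (-0.56) and Car9, a carbonic anhydrase and HIF-1 target, rose (0.48).

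Across wild-type populations, CMPs and GMPs differed at 1 member. Pgd was higher in WT GMPs (0.58 ± 0.13, limma adjusted p = 0.00664), at 10.80 to 10.92 against 10.13 to 10.49; 11% of all genes tested passed in that comparison, 6.65% higher in GMPs and 4.35% lower. Arrays were fully separate for 13 members, against 35.2% of all genes. Between these populations 7 members had an unadjusted p under 0.05 by limma, and the share over all genes was not computed. The count of members that passed rose from 1 to 8 with array weights and to 5 with CMP and GMP arrays fitted alone.

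WT Lin- + MCSF cells differed from WT CMPs at 18 members, 10 higher and 8 lower, where 55.6% of all genes differed, 19.6% higher and 36% lower. They differed from WT GMPs at 16 members, 8 higher and 8 lower, where 56.3% of all genes differed, 20.3% higher and 36.1% lower. Arrays were fully separate for 16 and 15 members, against 55.1% and 55.9% of all genes. The median over all genes was -0.14 in both comparisons. These cells differ from CMPs and GMPs in gate, culture and M-CSF at once, and their effects cannot be told apart. Slc16a1 had the largest difference, at 6.20 to 6.73 against 8.53 to 8.73 in WT CMPs and 8.42 to 8.81 in WT GMPs (-2.14 ± 0.15, limma adjusted p = 1.03e-10, and -2.12 ± 0.15, 1.02e-10), to 0.227 and 0.231 of their levels. Pfkm was lower (-1.67 and -1.03), and so were Tpi1, triose phosphate isomerase (-1.10 and -1.15), Pgam1 (-0.99 and -1.11), Hk3 (-0.60 and -0.99), Pdk1 (-0.38 and -0.31) and Taldo1 (-0.34 and -0.42). Ldha was lower as well, at 0.483 of the WT CMP level and 0.5 of the WT GMP level (limma adjusted p = 1.98e-08 and 3.33e-08).

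Higher in these cells than in WT CMPs and WT GMPs were Slc2a6 (1.10 and 1.00), Hk2 (0.62 and 0.43), Pgk1, the first ATP-forming enzyme of glycolysis (0.57 and 0.68), Slc16a3 (0.60 and 0.38), Pgls (0.78 and 0.41), Aldoc (0.43 and 0.58) and Hif1a (0.36 and 0.52). Pfkfb4 (0.62), Pkm (0.40) and Pgd (0.40) passed against WT CMPs and Rpia (0.37) against WT GMPs. Of the lactate transporters, Slc16a1 was lower and Slc16a3 higher. The 5 members Slc2a3, Pfkp, Pfkfb3, Gapdh and Rpe passed in none of the 9 comparisons of the main fit.

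**Figure D4:**
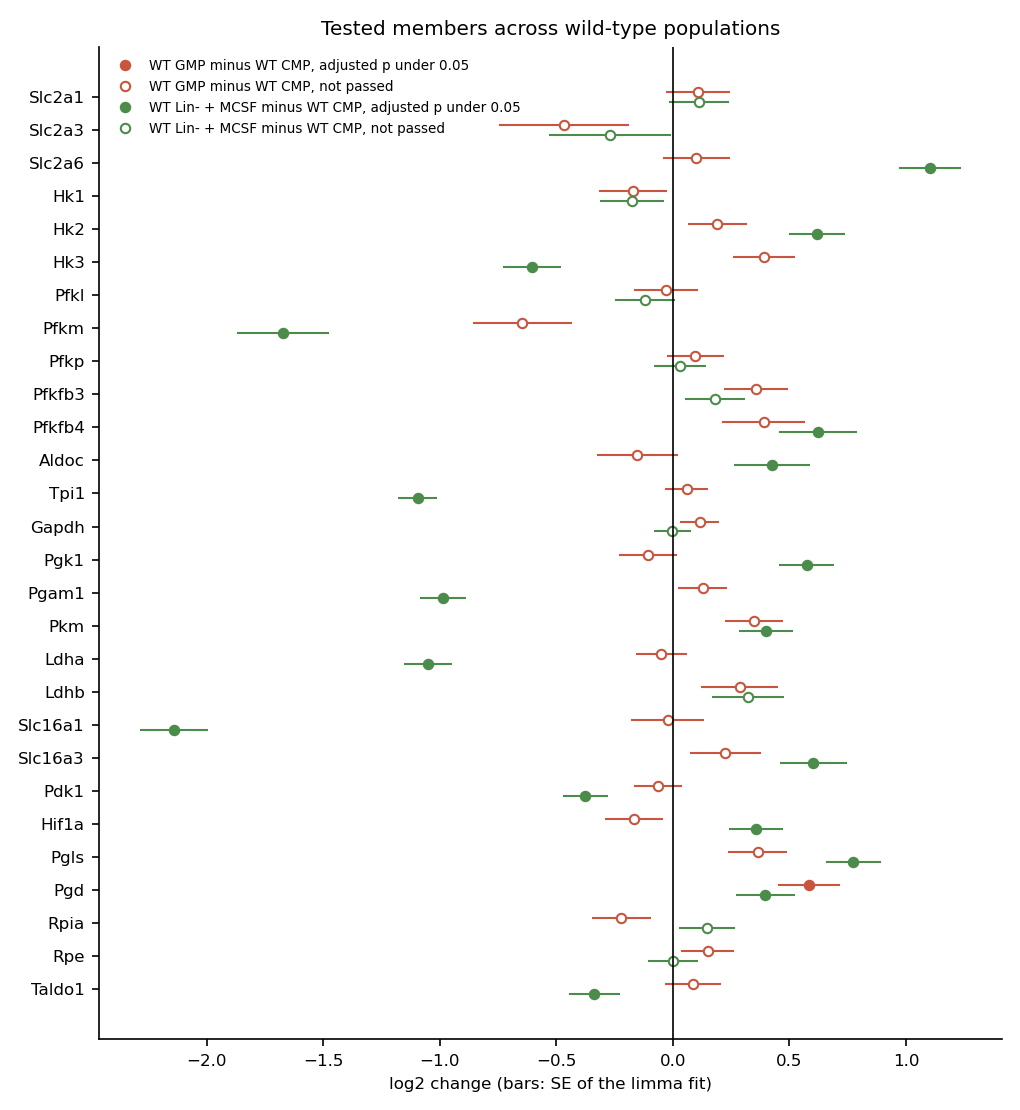
Log2 change of the 28 tested members from WT CMPs to WT GMPs (red) and to WT Lin- + MCSF cells (green), with bars for the SE of the limma fit and filled points where the adjusted p was under 0.05. Red points run from -0.65 (Pfkm) to 0.58 (Pgd, the 1 filled), and green points from -2.14 (Slc16a1) to 1.10 (Slc2a6).

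The genotype changes were compared between populations by interaction tests. In these, 1 member passed (7 with array weights) between GMPs and CMPs, upward, where 2.5% of all genes passed, 0.667% upward and 1.83% downward. Between Lin- + MCSF cells and CMPs 3 passed, all upward, where 7.77% of all genes passed, 4.32% upward and 3.45% downward. Between Lin- + MCSF cells and GMPs 1 passed upward and 1 downward, where 4.77% of all genes passed, 2.93% upward and 1.83% downward. These were Hk3 in all 3 tests, Pfkl and Pgam1 against CMPs, and Slc2a1 against GMPs. For the members that passed in every population, the change in Lin- + MCSF cells minus that in CMPs was 0.07 ± 0.19 for Slc2a6, 0.30 ± 0.22 for Ldhb and 0.27 ± 0.21 for Slc16a1. These tests share WT and CreER-Raptor arrays with the genotype comparisons.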

How the data were processed

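Total RNA of sorted cells, 1 to 5 ng, was amplified (NuGEN), given a biotin label and hybridised to 1-colour arrays, per the labels' protocols. The authors deposited log2 values per probe set; RMA, Partek 6.6 and limma appear in the submitters' processing notes, with no role or order. RMA can set arrays to 1 distribution, a step in which changes common to most transcripts are lost. Whether that step was applied here is not stated, so such changes may have been lost. The medians of the deposited arrays were 4.76 to 4.91. Detection above background was not assessed. The genome build of the array design was not stated in the labels or files used.

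Of 41345 probe sets, 23521 carry 1 gene symbol, 1814 several and 16010 none in the platform annotation. Entrez identifiers of 23328 were found in RefSeq, and 0 symbols changed. For each gene the probe set of highest mean over the 20 arrays was kept. Those with a mean of 3.86 or more, the 25th percentile, were tested, 16638 in all. The fit was made in limma 3.58.1, run in R 4.3.3 (6 group means, 14 residual degrees of freedom, eBayes without trend), with Benjamini-Hochberg adjustment over all genes tested in each of 9 comparisons. Changes are log2 units ± SE, CreER-Raptor minus WT. The fit gives each gene 1 spread for all 6 groups. Deviations from group means were larger on Lin- + MCSF arrays (SD 0.171 to 0.236) than on CMP and GMP arrays (0.109 to 0.168). The SEs may therefore be too small for Lin- + MCSF cells and too large for CMPs and GMPs. The number of arrays limits the precision. The fit was tested on simulated data.

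The members and lists were chosen with earlier results of these data known. Values on each array are given for members that passed in a genotype comparison or an interaction. Up to 4 passing genes per pathway list and population are named, those of smallest p. Outside this rule Egln3, ranked 8 by p among HIF-1 genes in Lin- + MCSF cells, is named beside its change in CMPs. The 5 pathway and 9 cell type lists were counted without a set test.  Alternatives changed the filter, probe set choice, normalization, eBayes settings, array weights, replicate block and arrays fitted, and left out each array in turn. Figures were drawn with matplotlib 3.10.9 in Python 3.11.15.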

Additional observations from a re-analysis of the deposited data

Results flagged for a closer look

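Among the 4 arrays of each Lin- + MCSF group, 1 array stood apart at 2 of the 56 member and group pairs examined by Dixon's test, where chance gives about 1 in 20. Both were WT replicate 3, which read 7.00 for Pfkfb4 against 6.23 to 6.35 on the other WT arrays and 7.69 for Ldhb against 8.14 to 8.18. Groups of 3 arrays were not examined in this way.

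The genotype change differed between populations by limma's interaction test at 4 members. For Hk3 it was higher in GMPs than in CMPs by 0.72, in Lin- + MCSF cells than in CMPs by 2.10 and in Lin- + MCSF cells than in GMPs by 1.39. Between Lin- + MCSF cells and CMPs it was higher by 0.64 for Pfkl and by 0.56 for Pgam1. Between Lin- + MCSF cells and GMPs the difference for Slc2a1 was -0.81. The first Hk3 difference and that of Pfkl were lost under several alternatives, and those of Pgam1 and Slc2a1 rest on 1 of 2 probe sets.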

How the results depend on the processing

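Of 25 genotype calls of members, 10 passed under all 10 alternative settings and without each array in turn: Slc2a6 in 3 populations, Hk2, Pfkm, Hk3 and Ldhb in CMPs, Hk3 and Ldhb in GMPs and Slc16a1 in Lin- + MCSF cells. No genotype call reversed. A further 16 genotype differences of members, 7 in CMPs, 7 in GMPs and 2 in Lin- + MCSF cells, passed only under some alternative. The Slc2a1 interaction between Lin- + MCSF cells and GMPs was 0.00 with its second probe set, an alternative chosen after seeing the data.

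The count of members called was 9 in CMPs and 6 to 8 without each array, 8 in GMPs and 5 to 8, and 8 in Lin- + MCSF cells and 5 to 8. With array weights it was 14, 15 and 5, and 2 with Lin- + MCSF arrays fitted alone. Between WT GMPs and WT CMPs it was 1 (1 to 2 without each array), 4 with the stricter filter (50th percentile), 2 with the mean of probe sets, 3 with arrays centred on their median, 4 with a trended and robust eBayes, 8 with array weights, 2 with second probe sets and 5 with these populations alone. For the interactions it was 1 between GMPs and CMPs (0 to 2 without each array; 0 without a filter or with median centring, 3 with the stricter filter, repeated quantile normalization or a trended eBayes, 7 with array weights). It was 3 between Lin- + MCSF cells and CMPs (1 to 4; 5 with array weights), all upward, against 3 upward and 1 downward with repeated quantile normalization and 2 and 1 with median centring, and 2 between Lin- + MCSF cells and GMPs (2 to 3; 1 with the mean of probe sets or second probe sets).

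The paired analysis, with the replicate number as a block, gave 8, 9 and 8 genotype calls and 2 calls between WT GMPs and WT CMPs. Whether the numbers pair the samples is not stated in the labels. Deviations of same-numbered arrays from their group means correlated at -0.344 to 0.119 between genotypes. Between WT CMPs and WT GMPs they correlated at 0.005 to 0.087, above other numbers for replicates 1 and 3 but not for replicate 2. Between the CreER-Raptor groups of these populations they correlated at 0.048 to 0.185, where each exceeded the correlations with other numbers. A shared source of same-numbered CMPs and GMPs was not tested, and the main fit treated their arrays as independent. Not every pair was over 0.1, the level set for pairing. The cause of these differences was not tested. Signal over background was not assessed, which limits what can be said of dim probe sets such as those of Pfkm and Ldha in Lin- + MCSF cells.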
